A study of Mus musculus with 24 samples.

Results

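Interleukins, tumor necrosis factor, TGF-beta, interferon-gamma and the colony-stimulating factors are the secreted signals by which immune, stromal and epithelial cells of the gut act on each other, and their receptors set which cells respond. The 51 genes described here are 24 ligands (with the IL-1 receptor antagonist counted among them), 26 receptor chains and the IL-18 binding protein. They are named members of these families, and each was followed on its brightest probe over 24 arrays of mouse colon RNA, out of 45616 gene names on the array. All 51 matched a probe through the accession of its transcript, and 24 of them had more than 1 probe.

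The mice were C57BL/6J males with sham surgery (M), females with sham surgery (F) and ovariectomized females (F(OVX)), 7 weeks old at the start and fed for 14 weeks a diet with 10 kcal% fat (low-fat, LFD) or with 45 kcal% fat (high-fat, HFD). Every mouse, the LFD controls included, received azoxymethane (AOM, a colon carcinogen, 10 mg/kg) and 3 cycles of 1.5% dextran sodium sulfate (DSS, which injures the colonic epithelium), and colon was taken 75 days after AOM. None of the arrays analysed here is of a mouse without AOM and DSS, and ovariectomy stands for the loss of all ovarian hormones, not of estrogen alone. Each of M, F and F(OVX) was studied on both diets, which gives 6 groups (M + LFD to F(OVX) + HFD) of 4 arrays. The methods give 5 animals per group and the labels do not say which mouse each array came from, so p-values measure the spread between these samples.

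In the IL-1 family, IL-1 alpha and IL-1 beta act through Il1r1 and are held back by the antagonist Il1rn and the decoy receptor Il1r2, while IL-18 acts through Il18r1 and is held back in solution by Il18bp. IL-18 is made by colonic epithelium and macrophages, and together with IL-12 it is known to drive interferon-gamma (Ifng) from T cells and NK cells. Interferon-gamma in turn is known to induce Il18bp. IL-7, made by epithelium and stroma, keeps T cells alive through Il7r.

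The proximal promoters of the genes on which the diet comparisons turn, and which have 1 start site in the table used, are shown for reference. They are the 250 bases before the start, 5′ to 3′ on the gene's strand, from RefSeq on the build GRCm38.p6, and capitals mark a GAS motif (TTCNNNGAA, the element bound by STAT dimers). Ifng lies at chr10:118440796-118441045 on the plus strand, Il18 at chr9:50554450-50554699 on the plus strand, Il18bp at chr7:102018233-102018482 on the minus strand and Il7r at chr15:9529877-9530126 on the minus strand.
Ifng: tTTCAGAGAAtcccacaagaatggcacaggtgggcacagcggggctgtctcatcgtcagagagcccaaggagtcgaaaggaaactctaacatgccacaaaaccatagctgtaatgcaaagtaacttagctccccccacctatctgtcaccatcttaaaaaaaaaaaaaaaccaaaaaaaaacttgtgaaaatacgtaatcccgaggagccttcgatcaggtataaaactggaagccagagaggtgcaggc
Il18: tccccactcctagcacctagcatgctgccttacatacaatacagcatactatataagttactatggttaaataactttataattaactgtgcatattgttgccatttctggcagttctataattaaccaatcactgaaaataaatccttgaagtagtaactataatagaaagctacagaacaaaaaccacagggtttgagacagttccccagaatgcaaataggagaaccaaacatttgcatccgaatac
Il18bp: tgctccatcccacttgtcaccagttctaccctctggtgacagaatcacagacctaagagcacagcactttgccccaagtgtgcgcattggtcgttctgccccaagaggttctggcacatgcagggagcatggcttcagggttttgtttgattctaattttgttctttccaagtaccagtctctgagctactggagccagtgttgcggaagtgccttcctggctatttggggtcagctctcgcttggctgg
Il7r: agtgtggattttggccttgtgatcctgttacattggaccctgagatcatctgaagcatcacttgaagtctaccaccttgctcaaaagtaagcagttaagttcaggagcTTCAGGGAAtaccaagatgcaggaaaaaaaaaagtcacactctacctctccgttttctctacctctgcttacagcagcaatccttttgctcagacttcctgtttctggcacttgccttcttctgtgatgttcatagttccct

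The GAS motif, which reads the same on both strands, stood once in the Ifng window, 249 to 241 bases before the start, and once in the Il7r window, 142 to 134 bases before it. The letters of neither an ISRE core (the interferon-stimulated response element, either strand) nor an AP-1 site (TGANTCA, the same on both strands) were in these 4 windows. Of all 32851 windows of 250 bases in the table, 7.02% held the GAS motif, 2.98% the ISRE core and 6.75% the AP-1 site. Of the 53 windows that the table held for 41 of the 51 genes, 6 held GAS, 1 the ISRE core and 9 AP-1. A match of letters is a description and not a binding site.

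Depth was read as signal over background, and with 4 arrays a group the precision is limited by their number. The share of probes flagged well above background ran from 40.5% to 61.9% over the arrays and was lowest on F(OVX) + LFD replicate 3 (40.5%) and F + HFD replicate 2 (43.6%), and no spot was saturated. Each sex or surgery was hybridized on 1 slide, with LFD in the upper row and HFD in the lower row, so M, F and F(OVX) cannot be told apart from their slides, nor the diets from the rows. The mean log2 signal of 5 distal Hox genes was uneven over the arrays. It was 9.71 and 7.67 on M + HFD replicates 1 and 4, 9.45 on F + LFD replicate 3 and 9.52 on F + HFD replicate 3. On F(OVX) + LFD replicates 2 and 4 it was 8.79 and 8.17, and on the remaining arrays 2.88 to 6.13. By Hoxb13 alone, a pair of libraries stood apart. Hoxb13, a homeobox gene of the distal hindgut, had a log2 signal of 2.18 on M + LFD replicate 1 and 5.04 on M + LFD replicate 2, against 12.58 to 14.79 on the other 22 arrays, so the called differences of the 51 genes in M are given with and without these arrays. The pan-epithelial and macrophage marker lists were well above background on every array (10 of 10 epithelial and at least 11 of 12 macrophage and monocyte genes), as the labelled tissue requires, while of 11 neutrophil genes on the array 0 to 7 were detected.

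Receptors were seen more often than their ligands. Of the 26 receptor chains, 21 were well above background on all 24 arrays and none on no array. Of the 24 ligands, 8 were detected on all arrays (Il1b, Il1rn, Il33, Il18, Il7, Il15, Tgfb1 and Csf1) and 7 on none (Il1a, Il6, Lif, Il13, Il23a, Il17a and Csf3). Il6, the acute-phase cytokine, stayed between 2.15 and 4.11 log2 units without once passing the background flag, and Il17a between 2.05 and 4.29. Il10, the main anti-inflammatory interleukin, passed it on 2 arrays, M + LFD replicate 1 (3.42) and F + LFD replicate 3 (3.97). Il22, which acts on epithelium, passed it on 1 array, M + HFD replicate 2, where its log2 signal was 6.26 against 2.05 to 4.81 on the other arrays. Csf2 was also detected on 1 array, Il12a on 6 and Il12b on 10. In all, 12 of the 51 genes were too dim to be tested in any comparison. These are bounds on what the arrays can show, and the absence of these transcripts cannot be read from them. The log2 signal of different probes is not comparable, so levels are compared between arrays and never between genes.

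**Figure D1:**
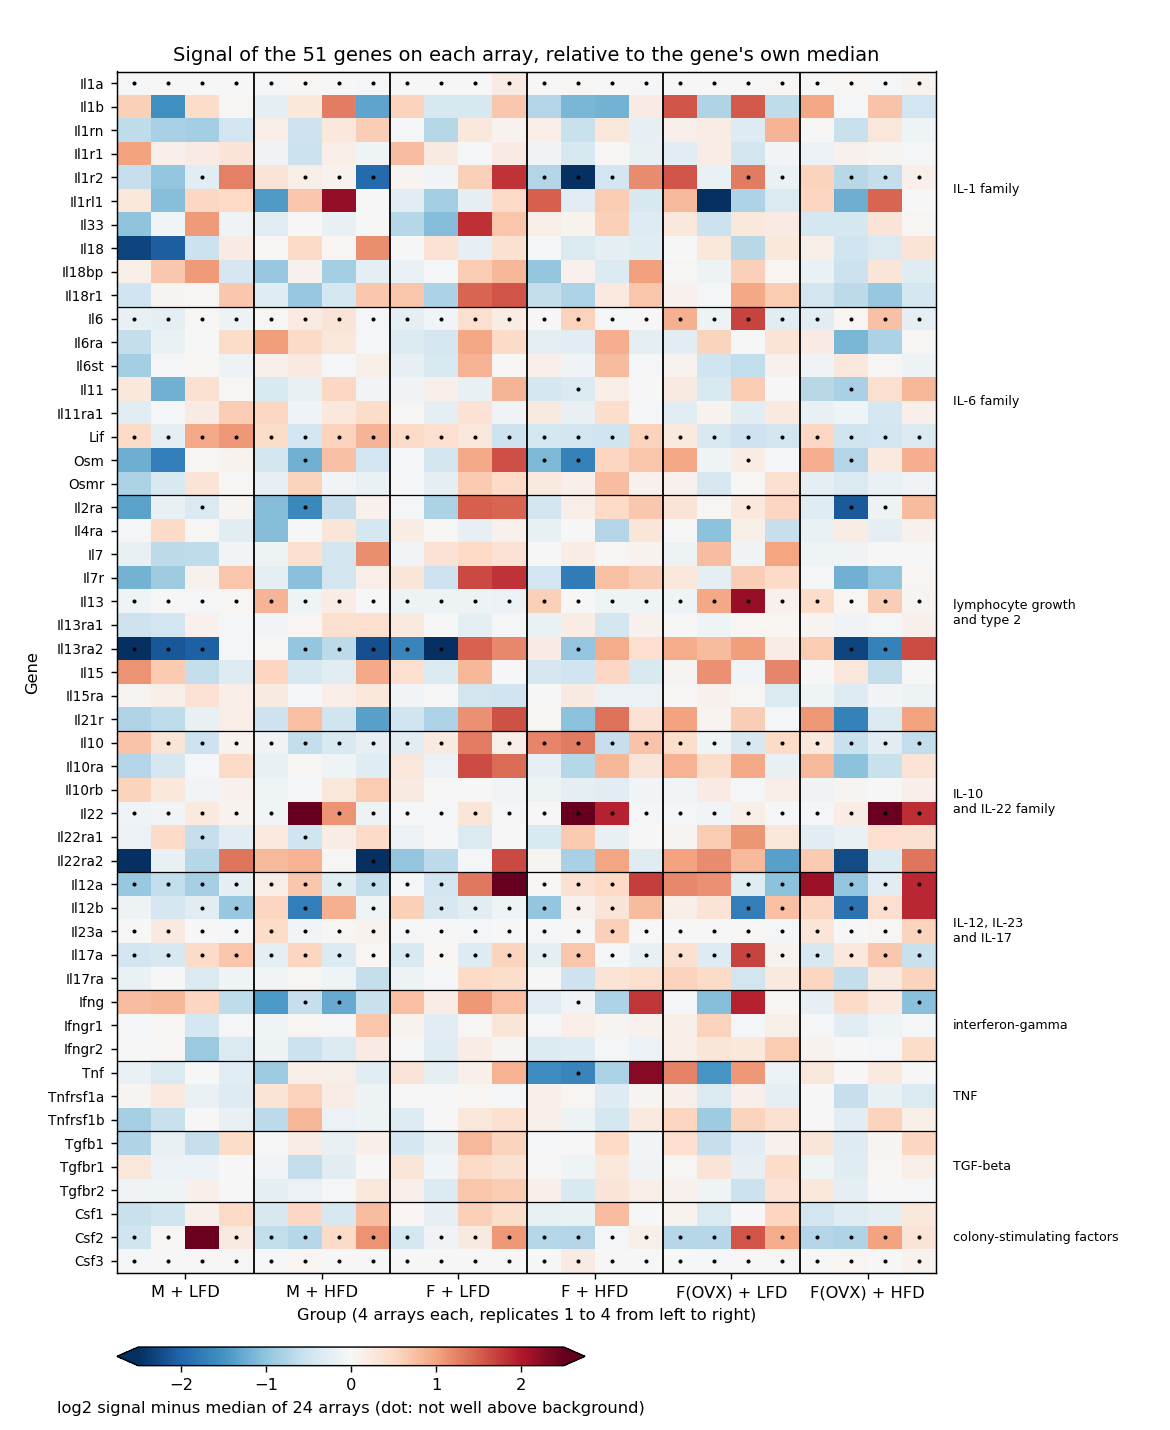
Each row is 1 of the 51 genes and each column 1 array, in colour the log2 signal minus the gene's median over 24 arrays, with a dot where the probe was not well above background. The rows with dots throughout are the 7 ligands detected on no array, and Il18 has its lowest values on M + LFD replicates 1 and 2 (10.34 and 10.57).

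By family, the genes seen on all 24 arrays were 8 of 10 in the IL-1 family, 4 of 8 in the IL-6 family, 7 of 10 among the lymphocyte growth and type 2 cytokines, 2 of 6 in the IL-10 and IL-22 family, 1 of 5 in the IL-12, IL-23 and IL-17 group and all 3 of the TGF-beta group. The gp130 subunit Il6st, which IL-6, IL-11, LIF and oncostatin M share, was among them, while its ligands Il6 and Lif were on no array.

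The first question was which of these genes differ between HFD and LFD within each sex or surgery. A gene is called here where the fold difference is at least 1.5 and the unadjusted p of limma's moderated test is under 0.05, which are the thresholds of the study, and a gene was tested where 1 of the groups had its probe flagged above background on each of its 4 arrays. In M, 4 of the 35 genes tested were called (11.4%), against a background of 4.30% of the 20516 genes tested. They were Il18 and Il1rn, higher in M + HFD, and Il18bp and Ifng, lower in M + HFD. No gene of the whole array passed an adjusted p of 0.05 in this comparison, and the 4 had an adjusted p of 0.8. The median log2 difference of the 35 was 0.11, and that of all genes tested was 0.01.

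Il18 encodes the cytokine that epithelial cells store as a precursor. Its log2 signal was 10.34, 10.57, 12.1 and 12.83 on the M + LFD arrays and 12.65, 13.11, 12.68 and 13.8 on the M + HFD arrays. The 2 lowest values are those of the arrays with little Hoxb13, and the highest M + LFD array lies above the lower M + HFD arrays, so the groups overlap. The means were 11.46 ± 1.2 and 13.06 ± 0.54 (SD, n = 4 each), a difference of 1.6 on the log2 scale. This is a 3.03-fold higher level (SE 0.56 on the log2 scale, unadjusted p = 0.0205 by limma). The exact permutation of the diets, two-sided over 70 assignments with a smallest p of 0.0286, gave p = 0.0857. Without both arrays of little Hoxb13 the difference was 0.59 (SE 0.39, unadjusted p = 0.173, adjusted p = 0.98 by limma) and the call was lost, as it was when M + HFD replicate 4 (1.35) or either of the arrays of little Hoxb13 (1.23 and 1.3) was left out.

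Il18bp encodes the secreted protein that binds and neutralizes IL-18. Its log2 signal was 8.73, 9.25, 9.64 and 8.15 on the M + LFD arrays and 7.62, 8.69, 7.73 and 8.33 on the M + HFD arrays, so 3 of the 4 M + LFD values exceeded every M + HFD value. The log2 difference was -0.85 (SE 0.36, unadjusted p = 0.0453 by limma), and the exact permutation p was 0.114. A second probe of the gene gave -0.75. The call was lost when any of 6 arrays was left out, that is each array but M + LFD replicate 4 and M + HFD replicate 2, with differences of -0.93 to -0.62. Without both arrays of little Hoxb13 it was -0.8 (unadjusted p = 0.148, adjusted p = 0.973 by limma).

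Ifng encodes interferon-gamma. Its log2 signal was 6.01, 6.07, 5.77 and 4.6 on the M + LFD arrays and 3.79, 4.66, 3.98 and 4.67 on the M + HFD arrays, and only the M + LFD value of 4.6 fell among those of the other diet. On 2 of the 4 M + HFD arrays it was not well above background, and it entered the test through M + LFD alone. The log2 difference was -1.34 (SE 0.36, unadjusted p = 0.00561 by limma, exact permutation p = 0.0857). It was called without each of the 8 arrays in turn, between -1.68 and -1.17, but not with another background correction (normexp), where the difference was -0.51, and not without both arrays of little Hoxb13, where it was -0.91 (unadjusted p = 0.0672, adjusted p = 0.926 by limma).

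Between the diets in M, the T cell marker genes differed in the same direction as Ifng. Among the M + LFD arrays Ifng was lowest on replicate 4 (4.6), where the summed T cell signal was 4320, above the 3680 of replicate 1. Among the M + HFD arrays Ifng was lowest on replicate 1 (3.79), where that sum was lowest too (2710). Whether the markers vary with Ifng between arrays was not tested. All 10 were lower in M + HFD, 1 of them called (Cd3g), with a median log2 difference of -0.42, and their summed signal ran from 3680 to 4770 on the M + LFD arrays and from 2710 to 3720 on the M + HFD arrays. Without both arrays of little Hoxb13, a setting for lists chosen after seeing the data, 9 of the 10 were lower, again with 1 called (median -0.43), and the M + LFD sums were 3770 and 4320. Cell division genes were also lower for 8 of 8 tested, none called by limma with all arrays (median -0.8) and all 8 called without that pair (median -1.58). Single genes of other marker lists were called too, Cdx2 of the epithelium (-1.77), Cidec of adipocytes (-3.06) and Hoxd13 of the distal colon (4.75). The part of these lists in the differences in M was not tested. In bulk tissue, fewer cells of a type and less RNA per cell cannot be told apart.

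Il1rn encodes the antagonist that occupies the IL-1 receptor without signaling. Its log2 signal was 10.99, 10.82, 10.79 and 11.16 on the M + LFD arrays and 11.8, 11.11, 11.89 and 12.25 on the M + HFD arrays. One M + HFD array (11.11) fell below the highest of them. The log2 difference was 0.83 (SE 0.24), a 1.77-fold higher level, with an unadjusted p of 0.0077 by limma and an exact permutation p of 0.0571. A second probe gave 0.72. The call held without each array in turn (0.67 to 1.04) and without both arrays of little Hoxb13, where the difference was 0.79 (unadjusted p = 0.0482, adjusted p = 0.926 by limma). With the mean of the distal Hox genes as a covariate none of the 4 genes was called in M, and the differences were 0.81 for Il18, -0.58 for Il18bp, -0.82 for Ifng and 0.67 for Il1rn.

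Il18r1 had a log2 difference of -0.32 in M (unadjusted p = 0.41, adjusted p = 0.942 by limma) and Il1r1, the signaling IL-1 receptor, of -0.56 (unadjusted p = 0.0413, adjusted p = 0.8 by limma), under the fold of 1.5. With both arrays of little Hoxb13 left out these were -0.6 (unadjusted p = 0.227, adjusted p = 0.991 by limma) and -0.41 (unadjusted p = 0.112, adjusted p = 0.945 by limma). Il1b itself, the ligand that Il1rn opposes, was 7.65, 5.51, 7.51 and 7.08 on the M + LFD arrays and 6.82, 7.31, 8.32 and 5.74 on the M + HFD arrays, a log2 difference of 0.11 with an SE of 0.62. The IL-6 family had higher means in M + HFD for 6 of 6 genes tested, with a median log2 difference of 0.3 and none called by limma, but for 2 of 6 without both arrays of little Hoxb13 (median -0.14). Among the receptor chains of interferon-gamma, Ifngr1 differed by 0.26 and Ifngr2 by 0.11, with SEs of 0.21 and 0.25.

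**Figure D2:**
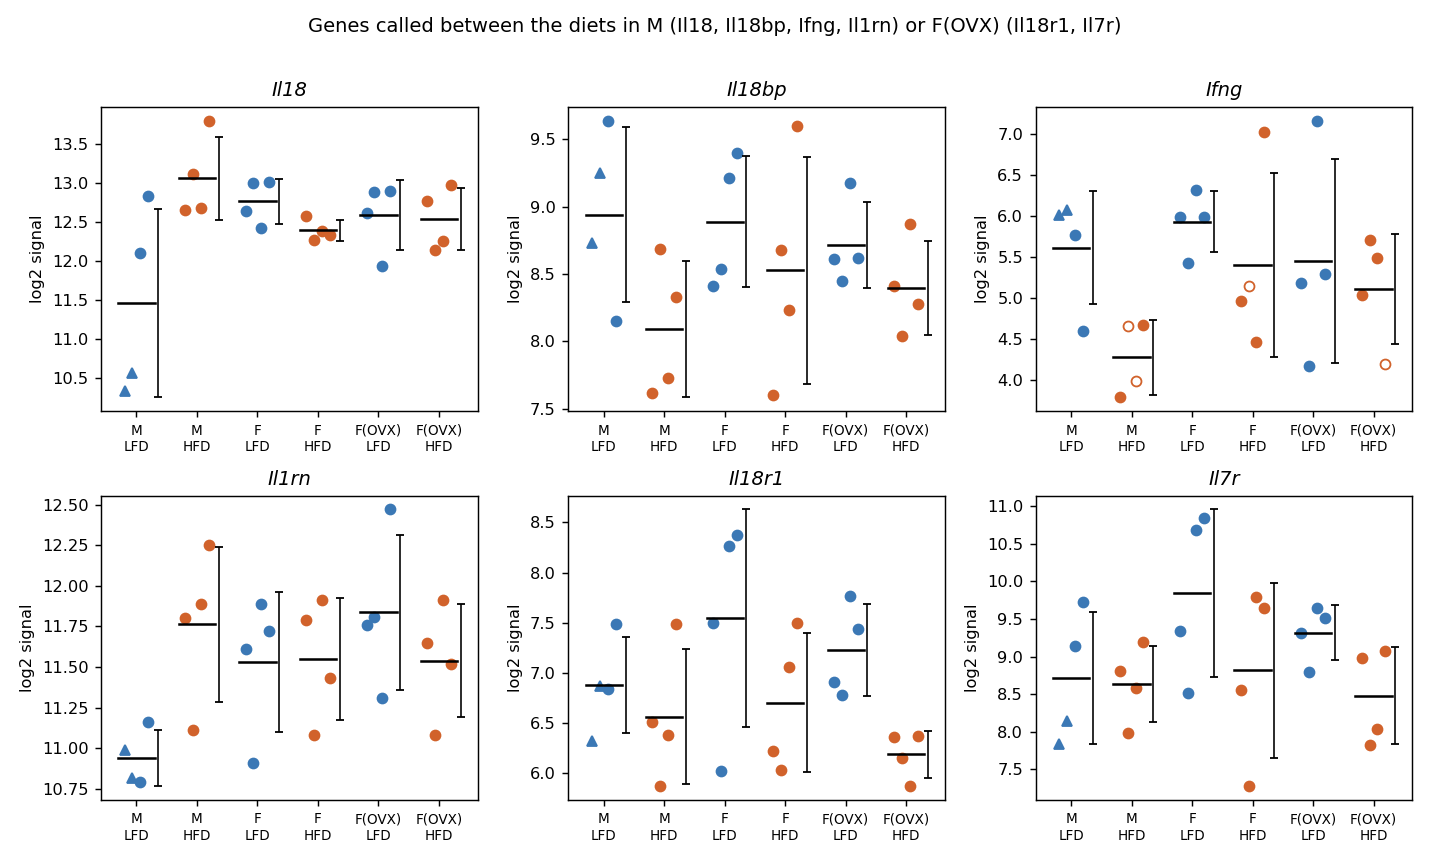
Points are the log2 signals of single arrays (blue LFD, orange HFD, open where not well above background), with the group mean as a line and its SD as a bar beside it (n = 4). Triangles mark the 2 M + LFD arrays with little Hoxb13, which are the lowest of all 24 for Il18 (10.34 and 10.57) but not for Il1rn, Il18bp or Ifng.

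Genes of the wider pathway were taken from 3 lists, of other cytokines and receptors, of signal transducers, and of genes these cytokines induce. Of 52 other cytokines and receptors tested in M, 3 were called higher and 1 lower. Of 34 induced genes 1 was called higher and 2 lower, and the background was 4.30% of all genes. The gene called higher was Cxcl1 (log2 difference 1.5), which was not well above background on M + LFD replicates 2 and 3. Cxcl1 entered the test through M + HFD alone, and Reg3b, called lower, through M + LFD alone. Each had to be high in that group, and these counts include them. Without both arrays of little Hoxb13 the counts were 2 higher and 0 lower of the 52, and 2 higher and 1 lower of the 34. With all arrays, those of smallest p were Gdf15, a stress-induced TGF-beta relative (log2 difference 1.56), Il34, a second ligand of the CSF-1 receptor (1.61), the antimicrobial lectins Reg3g (-4.25) and Reg3b (-6.05), and Bmp2 (1.12).

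Gdf15 was 7.22, 7.03, 7.47 and 8.05 on the M + LFD arrays and 9.62, 9.44, 8.25 and 8.69 on the M + HFD arrays, so the diets did not overlap. Il34 did not overlap either, with 7.35 to 9.07 on M + LFD and 9.46 to 10.74 on M + HFD. Without both arrays of little Hoxb13 the differences of Gdf15 (1.24) and Il34 (0.99) were still called, and those of Reg3g (-3.56), Reg3b (-4.51) and Bmp2 (1.03) were not. Reg3b was not well above background on 2 of the 4 M + HFD arrays (2.19 and 4.37) and entered the test through M + LFD alone.

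In F, none of the 38 genes tested was called by limma, against a background of 1.20% of 22085 genes. At an unadjusted p under 0.05 there was 1, Il1r1 (log2 difference -0.45, unadjusted p = 0.046, adjusted p = 0.991 by limma), and the methods' t-test called 0 as well. Of the 38, 30 had a lower mean in F + HFD, with a median log2 difference of -0.19 against 0 for all genes tested. The 30 include Il1r2, Osm, Il11, Tnf and Ifng, which entered the test through F + LFD alone and so had to be high there. The smallest adjusted p among them was 0.991. Il10rb, the shared chain of the IL-10 and IL-22 receptors, was the 1 gene whose diets did not overlap, with a log2 difference of -0.23, under the fold of 1.5.

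No label pairs mice across the diets. The replicate numbers of the F arrays are also the columns of the slide. They were used as a block because F + LFD and F + HFD arrays of the same number deviated together (correlations of 0.26 to 0.56 over genes). Still, F + LFD replicates 1 and 4 correlated best with other numbers, F + HFD replicates 2 and 3. The choice came from the same values that the block then tests, so its calls are no independent support. With the replicate number as a block, 6 of the 38 genes were called, all lower in F + HFD, against 2.65% of all genes, and again none had an adjusted p under 0.05. These were Il1b, Il1r2, Osm, Il10ra, Il18r1 and Il7r, of which Il1r2, Osm and Il10ra are named here after their values were seen.

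Il7r encodes the IL-7 receptor chain of T cells. It was 9.34, 8.51, 10.68 and 10.84 on F + LFD replicates 1 to 4 and 8.55, 7.28, 9.79 and 9.64 on the F + HFD arrays of the same numbers. Each pair fell by 0.79 to 1.23, while arrays of 1 diet differed by more than either of these (blocked log2 difference -1.03, SE 0.13, unadjusted p = 0.000368, adjusted p = 0.666 by limma, against an unadjusted p = 0.174 without the block). Il10ra, the IL-10 receptor chain of leukocytes, was lower by 0.48 to 1.07 in the 4 pairs (unadjusted p = 0.00284 with the block and 0.159 without it, by limma).

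Il1b was 7.62, 6.65, 6.65 and 7.72 on the F + LFD arrays and 6.32, 5.9, 5.86 and 7.26 on the F + HFD arrays, lower in all 4 pairs by 0.46 to 1.31 (blocked log2 difference -0.83, unadjusted p = 0.00332, adjusted p = 0.666 by limma). Osm, a cytokine of the IL-6 family made by leukocytes, differed by -0.91 and the decoy receptor Il1r2 by -1.25, also lower in all 4 pairs. On 2 of the F + HFD arrays Osm was not well above background, and on 3 of them Il1r2 was not. Both entered the test through F + LFD alone, so they had to be high there, and the count of 6 includes them. Il18r1 was lower in 3 of the 4 pairs and higher by 0.01 in the other (blocked log2 difference -0.84, unadjusted p = 0.015, adjusted p = 0.666 by limma). T cell markers had lower means in F + HFD for 9 of 10 genes, none called without the block and 3 with it, with summed signals of 3580, 3090, 7900 and 8670 on F + LFD replicates 1 to 4 and 3310, 2570, 5140 and 6230 on the F + HFD arrays. The summed signal of the neutrophil genes was 9300 and 3080 on F + LFD replicates 3 and 4 and 130 to 404 on the other F arrays, while Cxcr2, Ngp and Stfa2l1 were detected on none of the 24 arrays. The part of these markers in the differences was not tested.

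**Figure D3:**
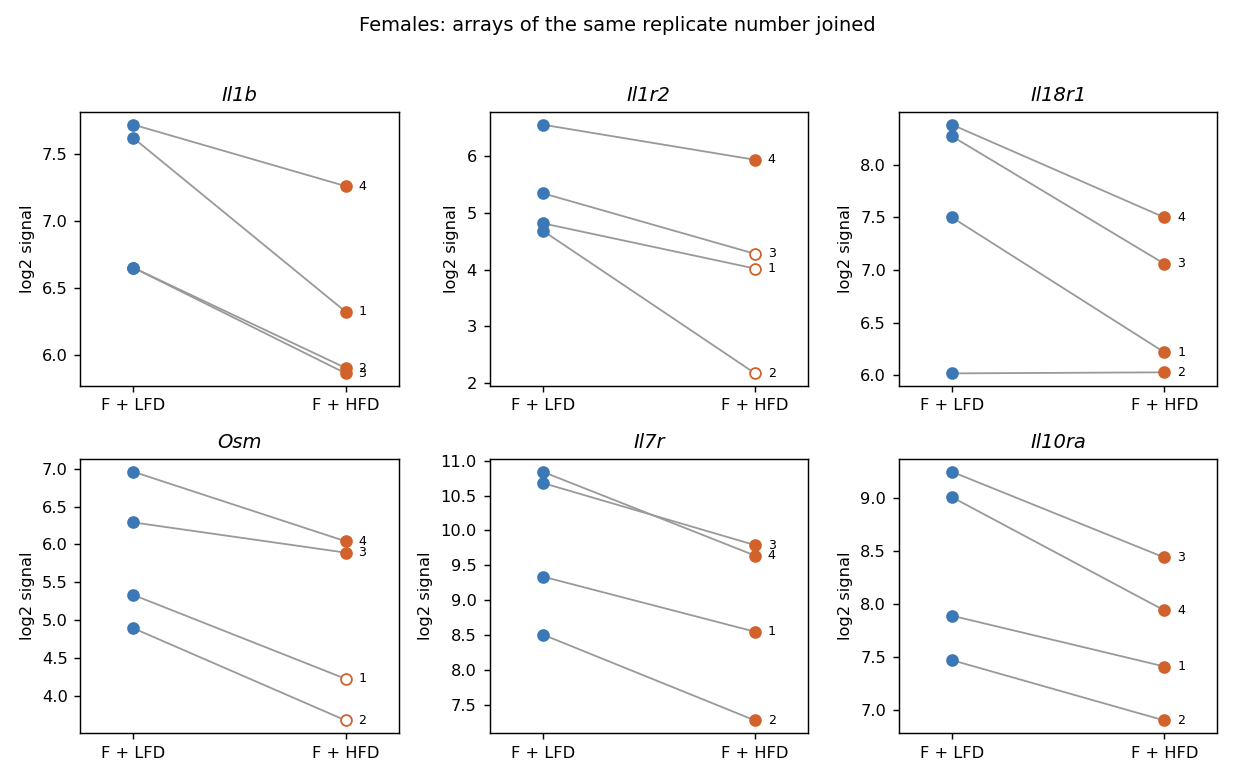
Log2 signal of the 6 genes called in F with the replicate number as a block, with F + LFD (blue) and F + HFD (orange) arrays of the same number joined and open points not well above background. Of the 24 joined pairs 23 fall from left to right, and the exception is replicate 2 of Il18r1 (a difference of 0.01). The genes were picked by the test on these same pairs, so the count of falling pairs is no independent support.

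One array set the unblocked values of Tnf and Ifng in F. Tnf was 6.78, 6.24, 6.6 and 7.34 on F + LFD and 4.92, 4.81, 5.68 and 8.75 on F + HFD, so replicate 4 was the highest of all 24 arrays while the other 3 were below every F + LFD array. Ifng was 5.99, 5.42, 6.32 and 5.98 on F + LFD and 4.96, 5.15, 4.46 and 7.02 on F + HFD, again with replicate 4 highest. Over all 8 arrays the log2 difference was -0.7 for Tnf (SE 0.81) and -0.53 for Ifng (SE 0.51), and neither was called. A second probe of Tnf, well above background on 22 of the 24 arrays, gave -0.29. Without F + HFD replicate 4 there were 4 genes called lower, Tnf (-1.61, unadjusted p = 0.00124, adjusted p = 0.91 by limma), Ifng (-1.07), Il1b (-1.14) and Il1r2 (-1.87), with 2.2% of all genes called. Leaving out the highest F + HFD array of Tnf and Ifng lowers their mean by construction, so these calls are no independent support. Tnf and Ifng were well above background on 3 of the 4 F + HFD arrays and Il1r2 on 1. With all 8 arrays these 3 genes entered the test through F + LFD alone. Without F + LFD replicate 2 there were 2 (Il1b and Il18r1), and 1 without F + HFD replicate 3 (Il15) or F + LFD replicate 3 (Il1b).

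Among the induced genes in F, 32 of 34 tested had a lower mean in F + HFD, 4 were called lower and none higher (background 1.20%), with a median log2 difference of -0.59 against 0 for all genes. With the block, run for lists after seeing the data, 9 of the 34 were called lower against 2.65% of all genes. These included the 4 and also Nos2 (-1.46, unadjusted p = 0.0202, adjusted p = 0.666 by limma) and Cxcl5 (-1.76, unadjusted p = 0.0366, adjusted p = 0.666 by limma). Cxcl5 was not well above background on F + HFD replicate 2 (4.93) and entered the test through F + LFD alone. Socs3, the feedback inhibitor that STAT3 induces, was 10.08, 11.2, 10.94 and 10.94 on F + LFD and 10.04, 9.79, 9.73 and 9.95 on F + HFD with no overlap, a log2 difference of -0.91 (unadjusted p = 0.00459, adjusted p = 0.991 by limma). Ccl2, the monocyte chemokine, differed by -1.32, Cxcl1, a neutrophil chemokine, by -1.35 and the serum amyloid gene Saa3 by -1.96. Cxcl1 was not well above background on 3 of the 4 F + HFD arrays and entered the test through F + LFD alone. Of the other cytokines and receptors, Tnfrsf11b, the decoy receptor osteoprotegerin, differed by -1.65. Macrophage and monocyte markers were lower for 11 of 12 genes in F + HFD, 1 of them called (2 with the block), with a summed signal of 47000 to 90600 on F + LFD and 43000 to 66600 on F + HFD, and their part was not tested.

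In F(OVX), 2 of the 36 genes tested were called (5.56%), both lower in HFD, against a background of 2.19% of 19211 genes. Of the 36, 29 had a lower mean in F(OVX) + HFD, with a median log2 difference of -0.2 against 0.01 for all genes. The 29 include Il11, Il13ra2 and Ifng, which entered the test through F(OVX) + LFD alone and so had to be high there. The called genes were the receptors Il18r1 and Il7r, and the adjusted p of both was 1.

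Il18r1, the chain that binds IL-18, was 6.91, 6.78, 7.77 and 7.44 on the F(OVX) + LFD arrays and 6.36, 6.15, 5.87 and 6.37 on the F(OVX) + HFD arrays. The groups did not overlap. The means were 7.22 ± 0.46 and 6.19 ± 0.24 (SD, n = 4 each). The log2 difference was -1.04, a 2.05-fold lower level in HFD (SE 0.24, unadjusted p = 0.00204 by limma), with the smallest exact permutation p the design allows, 0.0286. It was called without each array in turn (-1.18 to -0.85) and under every other setting tried in this comparison, between -1.31 and -0.62. Il18 itself differed by -0.05 in these mice (SE 0.27) and Il18bp by -0.31 (SE 0.22).

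Il7r was 9.32, 8.8, 9.65 and 9.51 on F(OVX) + LFD and 8.98, 7.82, 8.04 and 9.08 on F(OVX) + HFD, so 2 HFD arrays lay below all LFD arrays and 2 among them. The log2 difference was -0.84 (unadjusted p = 0.0299 by limma, exact permutation p = 0.0857). Leaving out F(OVX) + HFD replicates 2 or 3, or F(OVX) + LFD replicates 1, 3 or 4, removed the call, with differences of -0.84 to -0.62. It was also lost in 1 fit of 24 arrays and by the methods' t-test (both -0.84), with the Hox covariate (-0.93) and without the 2 arrays with fewest detected probes (-0.73). T cell markers were lower for 9 of 10 genes, none called, with summed signals of 3390 to 6920 on F(OVX) + LFD and 2410 to 4910 on F(OVX) + HFD. Smooth muscle markers were higher for all 7 genes tested, 4 of them called, with summed signals of 32000 to 74600 and 70600 to 165000. Macrophage and monocyte markers were lower for all 11 genes tested, 2 of them called (Mrc1 at -0.67 and Fcgr1 at -0.68), with summed signals of 44400 to 68000 and 42100 to 60600. The part of these 3 lists was not tested.

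Of 31 induced genes tested in F(OVX), 26 were lower in HFD, and 3 were called lower, against a background of 2.19%. Nos2, the inducible nitric oxide synthase, was 9.74, 8.92, 10.01 and 9.47 on F(OVX) + LFD and 6.69, 7.29, 7.62 and 8.48 on F(OVX) + HFD with no overlap, a log2 difference of -2.02 (unadjusted p = 0.000493, adjusted p = 1 by limma). The epithelial chemokines Cxcl5 (-2.35) and Ccl20 (-1.58) were the others. Cxcl5 was not well above background on F(OVX) + HFD replicate 2 (4.5). It entered the test through F(OVX) + LFD alone, so it had to be high there, and the count of 3 includes it. Tnfrsf25, a TNF receptor relative of T cells, was the 1 called gene of 51 other cytokines and receptors tested (-0.66), and 0 of 38 transducers were called, where the transducers' median was 0.06.

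**Figure D4:**
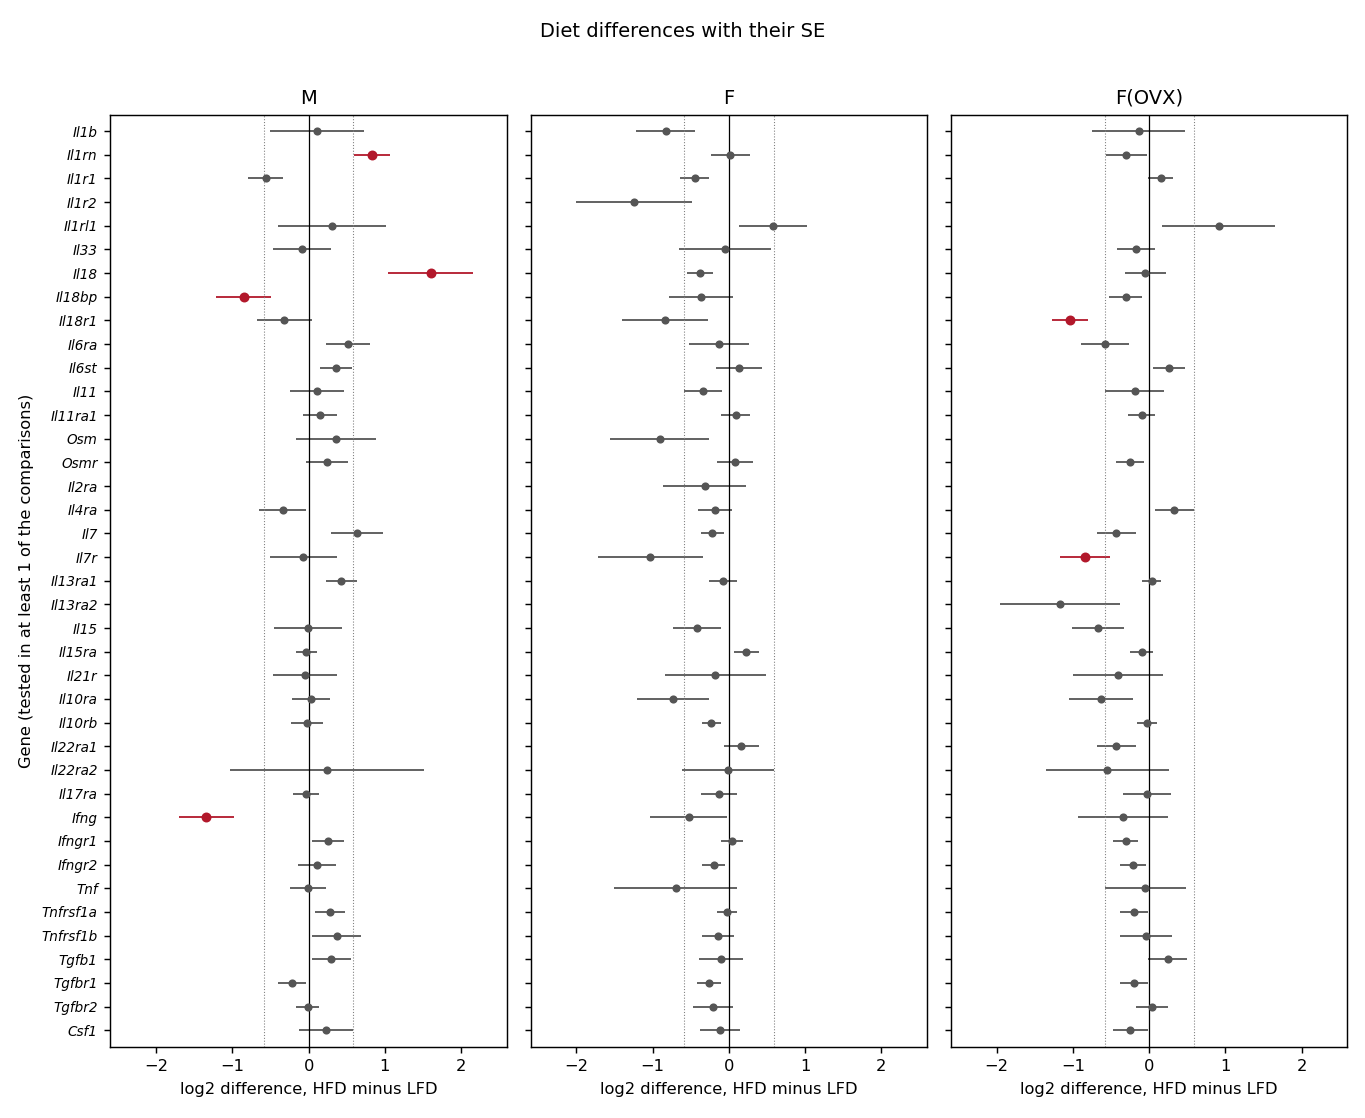
Log2 difference of HFD minus LFD with its SE for each gene tested in at least 1 of M, F and F(OVX), red where called and with dotted lines at a fold of 1.5. Il18 (1.6) and Il1rn (0.83) in M are the called differences above 0, and the differences in F and F(OVX) lie mostly below 0 (30 of 38 and 29 of 36 genes). Both counts include genes that entered the test through the LFD group alone.

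Averaged over M, F and F(OVX) in 1 fit of all 24 arrays, 2 of 39 genes tested were called, both lower in HFD (5.13%, against a background of 0.773% of 22383 genes). Il18r1 had an average log2 difference of -0.73 and Ifng of -0.74, with a smallest adjusted p of 0.984. Il18r1 was called without each array in turn (-0.9 to -0.64) but not with normexp (-0.45). Ifng was well above background on each LFD array but on 2, 3 and 3 of the 4 HFD arrays of M, F and F(OVX), so it entered the test through the LFD groups. The call of Ifng was lost without any of 8 arrays, that is F + HFD replicates 1 and 3, F + LFD replicate 3, F(OVX) + HFD replicate 4, F(OVX) + LFD replicate 3, M + HFD replicate 1 and M + LFD replicates 1 and 2, with values of -0.69 to -0.55. It was also lost with normexp (-0.31), without the 2 arrays with fewest detected probes (-0.52) and, at -0.59, without both arrays of little Hoxb13, where Il18r1 was at -0.83 and Il7r was called as well (-0.89).

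The next question was whether the diet effect differs between M, F and F(OVX), tested as contrasts in the same fit. Between M and F, 3 of 39 genes were called (7.69%, background 2.95%), all with the higher diet effect in M. Between M and F(OVX), 5 were called (12.8%, background 6.16%), 4 higher and 1 lower in M. Between F(OVX) and F, 1 was called (2.56%, background 1.52%). No gene of the array had an adjusted p under 0.05 in any of these contrasts, and the first pair of contrasts shares the M arrays.

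For Il18 the diet effect in M exceeded that in F by 1.98 log2 units (SE 0.58, unadjusted p = 0.00261, adjusted p = 0.975 by limma) and that in F(OVX) by 1.65 (SE 0.58, unadjusted p = 0.00944, adjusted p = 0.562 by limma). Within F, the 4 LFD values of Il18 were 12.64, 13, 12.42 and 13.01 and the HFD values 12.58, 12.27, 12.39 and 12.33. Within F(OVX) they were 12.62, 12.89, 11.94 and 12.9 against 12.77, 12.14, 12.26 and 12.97. All 16 arrays of F and F(OVX) therefore lay between 11.94 and 13.01, above M + LFD replicates 1 and 2. Without both arrays of little Hoxb13 the difference from F was 0.97 (unadjusted p = 0.0362, adjusted p = 0.999 by limma), still called, and that from F(OVX) was 0.65 (unadjusted p = 0.149, adjusted p = 0.922 by limma), no longer called. With the Hox covariate the latter was 1.18 and not called.

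Il1rn had a diet effect in M that exceeded that in F by 0.81 (unadjusted p = 0.0483, adjusted p = 0.975 by limma) and that in F(OVX) by 1.12 (unadjusted p = 0.0081, adjusted p = 0.562 by limma). On F + LFD its log2 signal was 11.61, 10.91, 11.89 and 11.72 and on F + HFD 11.79, 11.08, 11.91 and 11.43, with almost complete overlap. On F(OVX) + LFD it was 11.76, 11.81, 11.31 and 12.47 and on F(OVX) + HFD 11.65, 11.08, 11.91 and 11.52. In F(OVX) the probes disagreed, with a log2 difference of -0.3 on the brightest probe and 0.14 on the second. The contrast with F(OVX) was called without each array in turn (0.91 to 1.34) and, at 1.09, without the arrays of little Hoxb13, but not with the Hox covariate (0.63) or the mean of all probes (0.86). The contrast with F lost its call without any of 11 of the 16 arrays (0.64 to 0.82), all but F + HFD replicates 1 and 3, F + LFD replicate 2, M + HFD replicate 2 and M + LFD replicate 4, and also without both arrays of little Hoxb13 (0.77), with the Hox covariate (0.55), normexp (0.74), the mean of all probes (0.71) or no filter (0.81), and without the 2 arrays with fewest detected probes (0.65).

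Il7 showed the same order of differences. Its log2 signal was 6.29, 5.83, 5.84 and 6.41 on M + LFD and 6.35, 6.89, 6.03 and 7.65 on M + HFD, against 6.42, 6.84, 6.97 and 6.85 on F + LFD and 6.48, 6.66, 6.51 and 6.56 on F + HFD. On F(OVX) + LFD it was 6.35, 7.25, 6.4 and 7.47 and on F(OVX) + HFD 6.38, 6.4, 6.49 and 6.48. The diet effect in M (0.64) exceeded that in F by 0.86 (unadjusted p = 0.0417, adjusted p = 0.975 by limma) and that in F(OVX) by 1.07 (unadjusted p = 0.0134, adjusted p = 0.562 by limma), although none of the 3 diet differences was called by itself. The contrast with F(OVX) was called without each array in turn (0.76 to 1.3) and, at 1.03, without the arrays of little Hoxb13, but not with the Hox covariate (0.67). That with F lost its call without any of 10 arrays, F + HFD replicates 1, 3 and 4, F + LFD replicates 2, 3 and 4, M + HFD replicates 2 and 4 and M + LFD replicates 2 and 3 (0.55 to 0.86), and without both arrays of little Hoxb13 (0.82), with the Hox covariate (0.65) or with normexp (0.43).

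Il6ra, the binding chain of the IL-6 receptor, was 8.89, 9.32, 9.49 and 9.96 on M + LFD and 10.54, 9.97, 9.78 and 9.46 on M + HFD. On F(OVX) + LFD it was 9.22, 10.05, 9.5 and 9.84 and on F(OVX) + HFD 9.7, 8.36, 8.71 and 9.53, and on F arrays it ran from 9.08 to 10.47. The diet effects in M (0.52) and F(OVX) (-0.58) differed by 1.1 (unadjusted p = 0.0441, adjusted p = 0.66 by limma). This call was lost without any of 9 arrays, F(OVX) + HFD replicates 2 and 3, F(OVX) + LFD replicates 2 and 4, M + HFD replicates 1 and 2 and M + LFD replicates 1, 2 and 3 (0.86 to 1.13), and without both arrays of little Hoxb13 (0.79). It was lost too with the mean of all probes (1.02), without the 2 arrays with fewest detected probes (1.16) and with the Hox covariate, where the difference was 0.07.

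Il1r1 went the other way. It was 10, 9.13, 9.21 and 9.33 on M + LFD and 8.92, 8.47, 9.16 and 8.9 on M + HFD, 9.77, 9.23, 8.95 and 9.21 on F + LFD and 8.91, 8.59, 9.03 and 8.82 on F + HFD, and 8.72, 9.18, 8.55 and 8.94 on F(OVX) + LFD and 8.86, 9.1, 9.06 and 8.97 on F(OVX) + HFD. Lower HFD values in M and F and similar values in F(OVX) gave a contrast of -0.71 between M and F(OVX) (unadjusted p = 0.0215, adjusted p = 0.583 by limma) and of 0.6 between F(OVX) and F (unadjusted p = 0.0471, adjusted p = 1 by limma). The former lost its call without M + HFD replicate 2 (-0.58), M + LFD replicate 1 (-0.51), both arrays of little Hoxb13 (-0.56) or the 2 arrays with fewest detected probes (-0.61), and with the Hox covariate (-0.69). The latter lost it without any of 12 of the 16 arrays (0.44 to 0.63), all but F + HFD replicate 3, F + LFD replicate 3, F(OVX) + HFD replicate 1 and F(OVX) + LFD replicate 2, and also with the Hox covariate (0.59), with normexp (0.56) and without the 2 arrays with fewest detected probes (0.42).

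Levels were compared between the sexes and with ovariectomy over both diets, with the slide as a part of the contrast that cannot be told apart. Between M and F, 1 of 39 genes was called (2.56%, background 5.57%), and between F(OVX) and F none was called by limma, with 1 gene at an unadjusted p under 0.05, Ifngr2 (background 2.15%). The median log2 difference of the 39 genes was -0.19 for M minus F, against -0.01 for all genes, and -0.06 for F(OVX) minus F, against 0.01. Il2ra, the alpha chain of the IL-2 receptor that marks regulatory and activated T cells, was the called gene, with a log2 difference of -1 (SE 0.38, unadjusted p = 0.0169, adjusted p = 0.173 by limma).

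Il2ra was 4.33, 5.48, 5.29 and 5.72 on M + LFD, 4.58, 4.04, 5.09 and 5.76 on M + HFD, 5.63, 4.86, 7.15 and 7.12 on F + LFD and 5.18, 5.82, 6.16 and 6.33 on F + HFD. On F(OVX) + LFD it was 5.99, 5.69, 5.93 and 6.19 and on F(OVX) + HFD 5.36, 3.57, 5.53 and 6.45, and on 19 of the 24 arrays it was well above background. These were all 4 arrays of each F group, but 3 of M + LFD, 3 of M + HFD, 3 of F(OVX) + LFD and 2 of F(OVX) + HFD. Il2ra entered the test through the F groups alone, so it had to be high there. Under the filter on all arrays it was not tested. M and F arrays overlapped, and the highest values were F + LFD replicates 3 and 4, which also had the highest summed T cell signals of all arrays (7900 and 8670). The difference was -0.85 without both arrays of little Hoxb13 (unadjusted p = 0.0652, adjusted p = 0.412 by limma) and was called without each single array in turn (-1.22 to -0.84). With normexp it was -0.42, under the fold of 1.5. T cell markers were lower in M than in F for 9 of 10 genes, 3 of them called (Cd2 at -0.9, Cd3d at -0.64 and Cd5 at -0.72), with a median of -0.49 against -0.01 for all genes, and their part was not tested.

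Tnf, Il1b and Tgfb1 had no called difference in any of the 9 comparisons fitted on all arrays without the replicate block. Tnf was 6.3, 6.11, 6.48 and 6.19 on M + LFD and 5.58, 6.63, 6.61 and 6.21 on M + HFD, a log2 difference of -0.01 with an SE of 0.24. On F(OVX) + LFD it was 7.71, 4.99, 7.55 and 6.32 and on F(OVX) + HFD 6.75, 6.45, 6.7 and 6.48, so the LFD arrays bracketed the HFD arrays. Il1b on the same arrays was 8.62, 6.29, 8.59 and 6.42 with LFD and 8.02, 7.02, 7.76 and 6.57 with HFD, high on the replicates 1 and 3 on both diets. Ifng was 5.18, 4.17, 7.16 and 5.29 on F(OVX) + LFD and 5.03, 5.71, 5.48 and 4.19 on F(OVX) + HFD.

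Tgfb1, the main TGF-beta of the colon, was among the steadier ligands. It was 6.48, 7.03, 6.65 and 7.68 on M + LFD, 7.24, 7.41, 7.03 and 7.36 on M + HFD, 6.81, 7.03, 8.03 and 7.79 on F + LFD, 7.18, 7.21, 7.72 and 7.16 on F + HFD, 7.64, 6.64, 6.96 and 7.33 on F(OVX) + LFD and 7.53, 6.9, 7.3 and 7.77 on F(OVX) + HFD. The diet differences were 0.3 in M, -0.1 in F and 0.24 in F(OVX) with SEs of 0.26, 0.29 and 0.26. Its receptors Tgfbr1 and Tgfbr2 spanned 1.07 and 1.22 log2 units over all 24 arrays. The least variable of the genes detected on every array were Il15ra, Il10rb and Il13ra1, with ranges of 0.86, 0.92 and 0.94. The most variable was Il1rl1, the IL-33 receptor, with 4.76 on its brightest probe, which is of 1 of its transcripts.

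Whether a ligand varies with its antagonist, receptor or partner between mice of the same group was asked for 12 pairs of genes, of which 5 had both genes well above background on at least 12 arrays. Signals were centred on their group means and compared over 24 arrays by a permutation test (100000 resamples within groups), with Benjamini-Hochberg adjustment over the 5 pairs. Il1b and Tnf varied together (r = 0.62, adjusted p = 0.00242, rho = 0.76, adjusted p = 0.00135, by permutation). Within the slides of M, F and F(OVX) r was 0.5, 0.78 and 0.86, and without the 2 arrays farthest from the median of Il1b it was 0.63.

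Il1b also varied with its decoy receptor Il1r2 (r = 0.63, adjusted p = 0.00783, rho = 0.66, adjusted p = 0.00782, by permutation), with r of 0.57, 0.69 and 0.8 within the slides and 0.57 without the 2 farthest arrays. It did not do so detectably with its antagonist Il1rn (r = -0.19, p = 0.47, rho = -0.16, p = 0.531, by permutation), where r was -0.22, 0.13 and -0.36 within the slides and -0.25 without the 2 farthest arrays. Tgfb1 varied with Csf1, the macrophage growth factor (r = 0.66, adjusted p = 0.00242, rho = 0.66, adjusted p = 0.00195, by permutation), with r of 0.6, 0.83 and 0.62 within the slides and 0.61 without the 2 farthest arrays.

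Il33 and its receptor Il1rl1 had r = 0.32 (adjusted p = 0.0449) and rho = 0.48 (adjusted p = 0.0234, by permutation), and r was 0.1, 0.4 and 0.8 within the slides and 0.39 without the 2 farthest arrays. Il1rl1 was read on the probe of 1 transcript. A probe of another transcript, well above background on 21 arrays, had a log2 diet difference of -0.67 in F, against 0.58 on the probe used. The remaining 7 pairs each held Il6, Csf3, Il10, Il12b or Il22, which were detected on too few arrays. All these pairs share the RNA and the normalization of the same array.

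**Figure D5:**
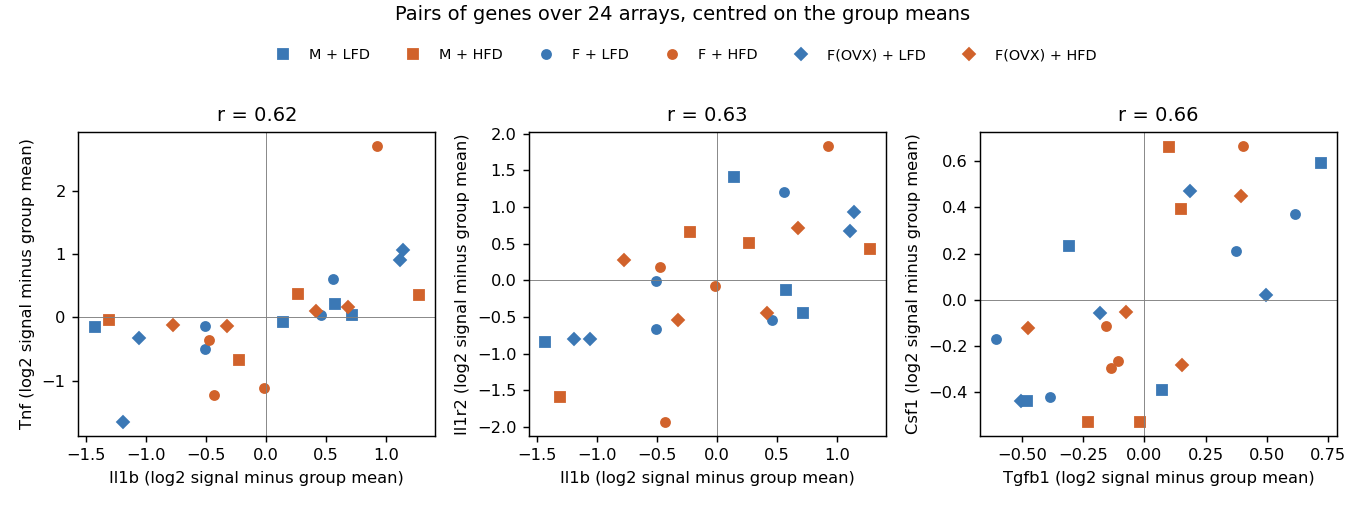
Log2 signals of 3 pairs of genes on 24 arrays, each minus its group mean (squares M, circles F, diamonds F(OVX), blue LFD, orange HFD). Points run from lower left to upper right in each panel (r = 0.62, 0.63 and 0.66).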

How the data were processed

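Colon RNA was labelled with Cy3 and hybridized to 1-color Agilent arrays, 4 per group. The authors deposited the scanner output of each array as extracted by Agilent Feature Extraction 11.0.1.1 (per the submitters' processing notes), and its processed signal is a background-corrected intensity that is not normalized between arrays. Here control spots and outlier flags were removed, and the deposited intensity was put on the log2 scale, quantile-normalized and averaged over the spots of a probe. Probes were named through transcript accessions in the RefSeq genes of GRCm38.p6, which named 58.3% of 56605 probes. The array design names mm9, and no coordinate was taken from it. The list genes Tnfsf13, Duox2 and Ly6g matched no probe.

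Each gene was represented by its brightest probe, and entered a diet comparison where 1 of the groups compared had it flagged above background on each of its 4 arrays. For the contrasts over 24 arrays any 1 of the 6 groups sufficed, also a group outside the contrast. Tests were made with limma 3.58.1 in R 4.3.3, with the methods' thresholds of a fold of 1.5 and an unadjusted p of 0.05 and with Benjamini-Hochberg adjustment over all genes tested. Diets were compared on the 8 arrays of each sex or surgery, and the 6 other comparisons were contrasts of 1 fit of 24 arrays. The exact permutation test enumerated 70 assignments. Values per array are given for genes called in any of 9 comparisons and for Il1b, Il6, Tnf, Ifng, Il10, Il22 and Tgfb1, and of the pathway lists for at most the 5 called genes of smallest p. The members and lists were chosen with earlier results of these data known.

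Arrays of the same replicate number deviated together in F (r of 0.26 to 0.56 over genes) but not in every pair of M (-0.25 to 0.03) or F(OVX) (-0.09 to 0.34). The block was therefore read in detail for F only, although no label gives such a pairing. F(OVX) + LFD replicates 1, 3 and 4 also correlated best with their own number. The alternatives were 75th percentile scaling, normexp background correction (offset 50, on median signals in place of the planned mean signals), other filters, the mean of all probes of a gene, the replicate number as a block, a distal Hox covariate, the methods' t-test, 1 fit of 24 arrays and leaving out arrays. The signal transducers in M are not reported here.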

Additional observations from a re-analysis of the deposited data

Results flagged for a closer look

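A single array stood apart within its group for 2 genes, both on F + HFD replicate 3. Il6ra was 10.41 log2 units there, against 9.21 to 9.28 on the other F + HFD arrays. Tgfb1 was 7.72 there, against 7.16 to 7.21. In all, 81 groups of 4 arrays from 16 genes were tested in this way, and chance alone marks about 1 in 20.

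The diet effect differed between groups for 9 contrasts at the unadjusted thresholds, none with an adjusted p under 0.05 by limma. In M minus F the differences of the diet effects on the log2 scale were 1.98 for Il18, 0.81 for Il1rn and 0.86 for Il7. In M minus F(OVX) they were 1.65 for Il18, 1.12 for Il1rn, 1.1 for Il6ra, 1.07 for Il7 and -0.71 for Il1r1. In F(OVX) minus F it was 0.6 for Il1r1.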

How the results depend on the processing

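No called gene changed direction under any alternative. The counts of these genes called were 4 in M, 0 in F, 2 in F(OVX), 2 averaged, 3 for M minus F and 5 for M minus F(OVX) in the diet effect, 1 for F(OVX) minus F in it, and 1 for M minus F and 0 for F(OVX) minus F in the level. With the replicate number as a block they were 3, 6, 3, 3, 5, 5, 2, 1 and 0 in that order, although no label shows that the numbers pair arrays. Leaving out 1 array gave 2 to 5 in M, 0 to 4 in F, 1 to 4 in F(OVX), 1 to 5 averaged, 1 to 3 for M minus F, 4 to 8 for M minus F(OVX) and 0 to 1 for F(OVX) minus F in the diet effect, and 1 to 5 for M minus F and 0 to 1 for F(OVX) minus F in the level.

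The distal Hox covariate gave 0 in M, 1 in F, 4 in F(OVX), 2 for M minus F(OVX) and 0 for F(OVX) minus F in the diet effect, and 2 for M minus F in the level. Normexp gave 0 averaged, 1 for M minus F and 0 for F(OVX) minus F in the diet effect, and 0 for M minus F in the level. The methods' t-test gave 2 in M and 1 in F(OVX), and 489, 125 and 209 of all genes in M, F and F(OVX), 0 after Benjamini-Hochberg. One fit of 24 arrays gave 1 in F(OVX). Testing only probes well above background on all arrays compared gave 1 averaged and 0 for M minus F in the level. No filter gave 3 for M minus F and 1 for F(OVX) minus F in the level. Without both M + LFD arrays of little Hoxb13 there was 1 in M and 0 for M minus F in the level. Without the 2 arrays with fewest detected probes, chosen after seeing the data, there was 1 averaged, 0 for F(OVX) minus F in the diet effect and 4 for M minus F in the level. The cause of these changes was not tested.

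Over all genes, the counts called that moved most were, in M, 882 against 267 (Hox covariate), 489 (t-test) and 567 (normexp), in F, 264 against 80 (normexp), 125 (t-test), 155 (filter on all arrays), 448 (Hox covariate), 586 (block) and 627 (no filter), and in F(OVX), 421 against 209 (t-test), 269 (normexp), 708 (without the 2 arrays with fewest detected probes), 843 (no filter) and 915 (Hox covariate). The other counts ran, over the alternatives that moved them by more than 1.5 times, from 54 to 478 around 173 averaged, 388 to 1150 around 661 for M minus F, 742 against 1378 for M minus F(OVX) and 151 to 827 around 340 for F(OVX) minus F in the diet effect, and from 495 to 2309 around 1246 for M minus F and 115 to 1054 around 481 for F(OVX) minus F in the level. Signal over background limits the dim ligands, such as Ifng.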
